A study of Rattus norvegicus with 28 samples.

Results

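The solute carriers (SLC) measured here were 136 genes, of 34845 gene names tested on a rat array, whose messenger RNA was followed in primary hepatocytes exposed to a dioxin or to a furan. A gene was taken when its name on the array began with Slc followed by a family number, a letter and a member number, and when a probe for it was well above background in both colours on at least 14 of 28 arrays. The brightest such probe stood for the gene, so any other probe of a gene given below was a dimmer one. Names of this form covered 199 probes and 156 genes. Slc2a2, Slc2a5, Slc37a4, Slc10a1 and Slc27a5 were left out by definition (Slc7a11, also left out, was not found as an array name), and 15 of the other 151 did not reach the threshold. The weakest genes kept were Slc1a6 and Slc6a15, on 15 arrays, and the nearest ones lost were Slc28a3, Slc2a3, Slc5a5 and Slc6a18, on 12. On all 28 arrays 110 of the 136 were above background, and no member was saturated.

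Hepatocytes were isolated from 2 adult female rats of the Sprague-Dawley strain (A and B) and kept on Matrigel with insulin, transferrin, selenium and 0.1 uM dexamethasone for 48 h and then exposed for 24 h. The 7 groups were untreated cells, TCDD (2,3,7,8-tetrachlorodibenzo-p-dioxin) at 0.01 or 1 nM, TCDF (2,3,7,8-tetrachlorodibenzofuran) at 0.1 or 10 nM, and PeCDF (2,3,4,7,8-pentachlorodibenzofuran, a furan with 1 more chlorine than TCDF) at 0.02 or 2 nM. Compounds were given in 0.1% DMSO, and each RNA, pooled from 3 dishes of an animal, shared its arrays with RNA of DMSO-treated cells of the same animal, in both dye orientations. Each value below is the log2 ratio of test RNA over DMSO RNA, given with its standard error from a fit across all genes with limma, and rests on n = 2 animals unless stated.

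Solute carriers move nutrients, ions, metabolites and drugs across the plasma membrane and the membranes of organelles, each family with its own substrates. In the liver, carriers of the sinusoidal membrane bring in bile acids, organic anions and cations, amino acids and vitamins from the blood, and carriers of the mitochondrial inner membrane pass citrate, phosphate, nucleotides and acylcarnitines. TCDD and both furans are agonists of the aryl hydrocarbon receptor (AHR), a ligand-activated transcription factor that binds DNA with its partner ARNT.

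RefSeq windows of 250 bases before the start (build GRCr8) are printed for Slc3a2 and for the pairs Slc17a1 with Slc17a3 and Slco1a1 with Slco1a4. Their upstream sequence can thus be read beside their values. Slc3a2 has an amino acid role and a call with each upper dose. Each pair lies close together and has calls given below. Other members also lie next to each other, without a window printed here, so closeness alone did not pick these pairs. The printed windows do not stand for those of other members. Letters were searched on both strands: GCGTG (the AHR and ARNT core), TGATGNAA (the ATF4 and CHOP composite) and TTAATNATT (the HNF1 core). A match is shown in capitals and is a description of the letters only. Slc3a2 has 2 starts in the table, Slc17a1 and Slc17a3 are next to each other in the gene order, and so are Slco1a1 and Slco1a4. All 6 windows lie on the minus strand and read 5' to 3' towards the gene.
Slc3a2, one start, chr1:215039671-215039920: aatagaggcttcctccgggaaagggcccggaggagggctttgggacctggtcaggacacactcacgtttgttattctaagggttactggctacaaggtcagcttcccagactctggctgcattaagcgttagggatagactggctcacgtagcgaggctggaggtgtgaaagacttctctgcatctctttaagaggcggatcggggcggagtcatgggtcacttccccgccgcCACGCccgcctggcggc
Slc3a2, other start, chr1:215048065-215048314: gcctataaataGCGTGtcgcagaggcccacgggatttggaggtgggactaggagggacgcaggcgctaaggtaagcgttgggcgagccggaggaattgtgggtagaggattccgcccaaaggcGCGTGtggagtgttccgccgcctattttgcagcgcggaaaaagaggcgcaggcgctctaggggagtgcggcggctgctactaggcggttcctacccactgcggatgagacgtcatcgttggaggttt
Slc17a1, chr17:41681175-41681424: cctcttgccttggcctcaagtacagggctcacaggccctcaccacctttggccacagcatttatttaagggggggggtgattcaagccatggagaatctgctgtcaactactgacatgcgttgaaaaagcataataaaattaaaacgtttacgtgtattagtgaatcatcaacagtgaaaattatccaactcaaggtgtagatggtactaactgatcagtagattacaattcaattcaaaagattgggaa
Slc17a3, chr17:41723110-41723359: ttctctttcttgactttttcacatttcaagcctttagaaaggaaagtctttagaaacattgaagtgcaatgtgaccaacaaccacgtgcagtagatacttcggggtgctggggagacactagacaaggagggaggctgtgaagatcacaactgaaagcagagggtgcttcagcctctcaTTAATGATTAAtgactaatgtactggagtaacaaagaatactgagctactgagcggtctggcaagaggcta
Slco1a1, chr4:176681993-176682242: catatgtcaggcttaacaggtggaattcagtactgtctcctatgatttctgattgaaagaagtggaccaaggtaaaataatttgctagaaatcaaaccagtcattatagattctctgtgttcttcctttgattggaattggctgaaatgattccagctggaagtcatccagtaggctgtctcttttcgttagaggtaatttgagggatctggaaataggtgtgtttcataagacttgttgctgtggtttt
Slco1a4, chr4:176495847-176496096: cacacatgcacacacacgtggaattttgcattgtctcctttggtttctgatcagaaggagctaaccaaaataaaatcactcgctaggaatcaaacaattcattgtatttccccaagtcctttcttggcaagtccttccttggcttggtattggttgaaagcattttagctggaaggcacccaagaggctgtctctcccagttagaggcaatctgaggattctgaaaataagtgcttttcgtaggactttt

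GCGTG was found in both Slc3a2 windows and in none of the other 4. TTAATNATT was found in the Slc17a3 window alone of these 6, where 2 matches overlap, and 1.37% of the 33469 windows of this length in the table held it, as 25.9% held GCGTG and 3.4% TGATGNAA. Aligned end to end, the windows of Slco1a1 and Slco1a4 were identical at 66.4% of aligned positions, and those of Slc17a1 and Slc17a3 at 46.4%.

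Exposure to TCDD 1 nM moved carriers in both directions. At an adjusted p under 0.05 over all genes, 11 members rose and 20 fell, which is 22.8% of the 136, while 10.6% of all genes tested were called in the same comparison. By direction, 8.09% of members rose against 4.63% of all genes, and 14.7% fell against 5.92%. TCDF 10 nM called 9 members (6.62%, with 2.36% of all genes), 4 higher and 5 lower, where 1.11% and 1.26% of all genes were. PeCDF 2 nM called 12 members (8.82%, with 4.39% of all genes), 3 higher and 9 lower, where 1.72% and 2.67% of all genes were. All of these calls had the same sign on the 4 arrays of the group. Members were more often above background on all 28 arrays (110 of 136) than all genes (23618 of 34845). With only such probes, 30 of 110 members and 3930 of 23618 genes were called with TCDD 1 nM. The counts were 11 and 922 with TCDF 10 nM, and 12 and 1734 with PeCDF 2 nM. How far this affects the shares was not tested, and shares of all genes given below carry the same limit.

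The changes were small. Only 4 members passed 1.5-fold with TCDD 1 nM, none passed 2-fold in any group, and none passed 1.5-fold with the furans. The median of the members was 0.0005 with TCDD 1 nM, -0.0197 with TCDF 10 nM and -0.006 with PeCDF 2 nM, beside -0.0013, 0.0023 and -0.0007 over all genes. Their median size, without regard to sign, was 0.0762 with TCDD 1 nM, 0.041 with TCDF 10 nM and 0.0517 with PeCDF 2 nM, beside 0.0525, 0.0387 and 0.047 over all genes. The doses of the 3 compounds differ. By the extraction dates in the file headers, untreated and TCDD arrays were read on days 1 and 2, and furan arrays on days 3 and 4. Each of these pairs of days is called a session here, so TCDD against a furan cannot be told apart from the session. Arrays with test RNA in red were read on days 1 and 3 and those with it in green on days 2 and 4, so dye orientation and day cannot be told apart.

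**Figure D1:**
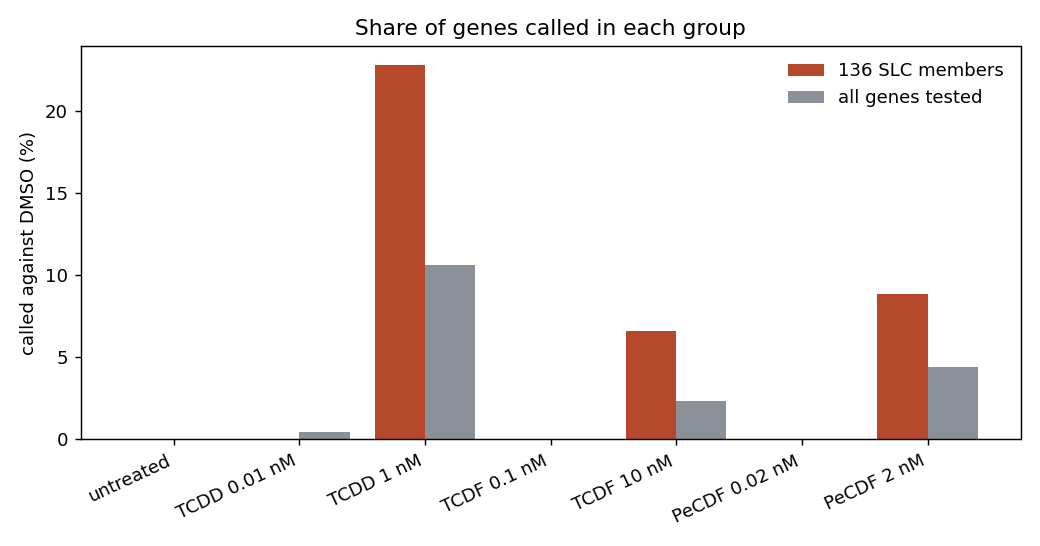
Bars give the percentage of genes called against DMSO (limma, adjusted p under 0.05) in each of the 7 groups, for the 136 carriers and for all genes tested. The carriers reach 22.8% with TCDD 1 nM, 6.62% with TCDF 10 nM and 8.82% with PeCDF 2 nM, and have no call in the other 4 groups.

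No member was called in untreated cells, where 0.043% of all genes were, nor at the lower doses, where 0.451% (TCDD 0.01 nM), 0.00287% (TCDF 0.1 nM) and 0% (PeCDF 0.02 nM) of all genes were called. At an unadjusted p under 0.05 the counts were 19, 9, 9 and 8 members in that order. The 95% interval of a member at TCDD 0.01 nM reached 0.117 to either side (median), before any adjustment. A call, adjusted over all genes, needed a larger change than that. The largest member value at TCDD 0.01 nM, 0.56, had no call, so changes well above 0.117 could be missed. Among reference genes of the receptor, Cyp1b1, which oxidises oestrogens and aromatic hydrocarbons, had log2 ratios of 3.93, 2.07 and 2.78 at the upper doses of TCDD, TCDF and PeCDF, and Nqo1, a quinone reductase, 1.54, 1.44 and 1.61. Cyp1a1, the best known target, was saturated on all 4 arrays of each upper dose and of TCDD 0.01 nM, so no ratio is given for it.

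Markers of hepatocytes were well above background on all 28 arrays in 8 of 8 cases, and 2 of them, Arg1 and Tdo2, fell with TCDD 1 nM (list range -0.85 to 0.05). Of the lists for other liver cells, 2 of 10 Kupffer cell, 7 of 9 stellate cell, 3 of 7 endothelial cell and 3 of 6 cholangiocyte markers were on the array by name, all above background on every array; with TCDD 1 nM 1, 1, 0 and 1 of them fell (Cybb, Vim and Prom1) and none rose. Their log2 ratios ranged from -0.34 to -0.19, -0.75 to 0.13, -0.01 to 0.11 and -0.49 to 0.10 in that order. With TCDD 1 nM 4.63% of all genes were called higher and 5.92% lower. At the upper furan doses 1 stellate cell marker fell with TCDF 10 nM and 1 rose with PeCDF 2 nM. No other listed marker was called there, where 1.26% of all genes were called lower with TCDF and 1.72% higher with PeCDF. The part of these other cells in the results was not tested. In such bulk RNA, fewer cells of a type and less RNA per cell cannot be told apart. The labels name 2 animals, and p-values measure the spread between them only.

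Organic ions, drugs and hormones formed the class with most calls in number, 9 of 21 members (42.9%) with TCDD 1 nM, of which 2 rose and 7 fell. The share was higher in the smaller classes of mitochondrial carriers (62.5% of 8) and metals (57.1% of 7), and 10.6% of all genes were called. The largest decreases of all members were those of Slc21a1 and Slc21a5, the array's names for Slco1a1 and Slco1a4. These encode sodium-independent uptake carriers of the sinusoidal membrane for bile acids, steroid conjugates and many drugs.

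Slc21a1 (Slco1a1) had ratios of -0.67 in animal A and -0.93 in animal B with TCDD 1 nM, a 1.74-fold decrease (-0.80 ± 0.09, adjusted p = 0.000302). With TCDF 10 nM the animals had -0.38 and -0.36 (adjusted p = 0.0586) and with PeCDF 2 nM -0.14 and -0.39 (adjusted p = 0.125). Untreated cells had 0.39 and 0.24, and the 3 lower doses lay between -0.17 and 0.13. Both animals were thus lowest with TCDD 1 nM, apart from every other group. Slc21a1 was named for its call there, and the share of all genes with such a gap was not counted.

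Slc21a5 (Slco1a4) had -0.58 and -1.02 in animals A and B with TCDD 1 nM, also a 1.74-fold decrease (-0.80 ± 0.10, adjusted p = 0.000683). Its second probe gave -0.92 ± 0.14. The animals had -0.36 and -0.49 with TCDF 10 nM and -0.35 and -0.36 with PeCDF 2 nM, neither of them called (adjusted p = 0.0574 and 0.0743). All other groups lay between -0.23 and 0.18.

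Other relatives of this family moved less. Slc21a13 (Slco1a6) fell with TCDD 1 nM to -0.40 and -0.49 (-0.45 ± 0.07, adjusted p = 0.00332). Slc21a10 (Slco1b2), the main liver carrier of the 1b branch, had -0.15 and -0.44 (-0.29 ± 0.08, adjusted p = 0.0451), and its call was kept in 6 of 11 alternative analyses and lost with the animal as a replicate block. Slc21a4 (Slco1a3) had 0.02 and was not called. In the RefSeq gene order these 5 genes are neighbours or next but one, and a probe of one can bind RNA of another. That was not tested.

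Among the carriers of organic ions of the Slc22 family, Slc22a7 (OAT2), an organic anion carrier, fell with each upper dose. Its animals had -0.43 and -0.27 with TCDD, -0.39 and -0.37 with TCDF and -0.52 and -0.17 with PeCDF. Slc22a17, a receptor for lipocalin 2, fell to -0.23 ± 0.05 with TCDD 1 nM and -0.21 ± 0.05 with PeCDF 2 nM. Slc22a2, Slc22a5, Slc22a6, Slc22a8 and Slc22a18 had means between -0.09 and 0.07 with TCDD 1 nM. Animals A and B had -0.16 and 0.18 for Slc22a5, -0.14 and 0.29 for Slc22a6, and -0.11 and 0.04 for Slc22a18. They had 0.00 and -0.02 for Slc22a2 and -0.06 and -0.13 for Slc22a8.

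Slc17a3 and Slc17a1 carry organic anions such as urate and were the 2 members of this class that rose. Slc17a3 had 0.85 and 0.57 with TCDD 1 nM (0.71 ± 0.10, adjusted p = 0.00146) and 0.58 and 0.44 with TCDF 10 nM (0.51 ± 0.10, adjusted p = 0.03). With PeCDF 2 nM the animals had 0.21 and 0.42, which was not called (adjusted p = 0.119). With PeCDF 0.02 nM both animals lay below DMSO, at -0.49 and -0.14.

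Slc17a1 had 0.65 and 0.26 with TCDD 1 nM, 0.53 and 0.60 with TCDF 10 nM and 0.43 and 0.57 with PeCDF 2 nM. It was called with each of them (adjusted p = 0.0221, 0.0271 and 0.0306), and the values of untreated cells and of the lower doses lay between -0.20 and 0.29. With the furans, the calls of Slc17a1 were lost with Agilent's own log ratio and with the second session alone. The calls of Slc17a3 with TCDF 10 nM were lost with the same settings.

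**Figure D2:**
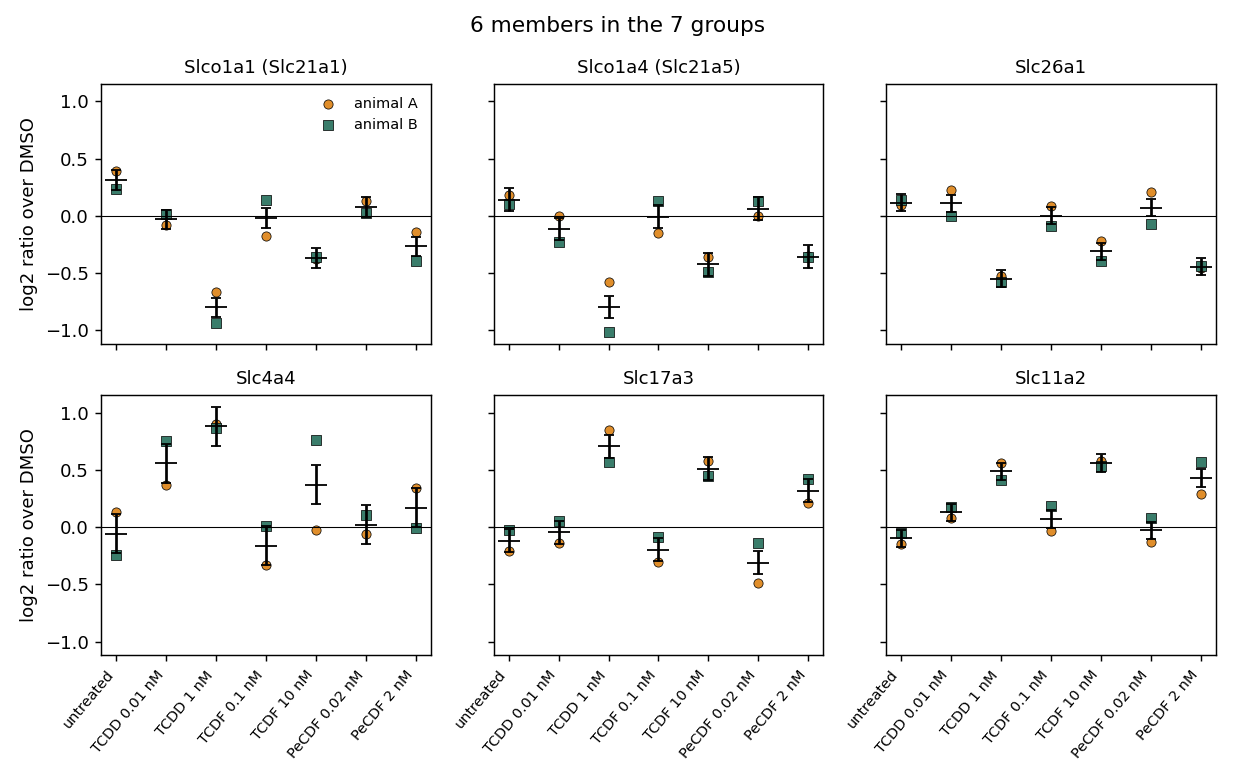
Points give the log2 ratio over DMSO of each animal (circles A, squares B) in the 7 groups for 6 members, with the mean as a bar and its standard error from the fit. Slco1a1 and Slco1a4 are lowest with TCDD 1 nM (-0.80 each), Slc17a3 reaches 0.71 and Slc4a4 0.88 there, and Slc11a2 is near 0.49 in TCDD, 0.56 in TCDF and 0.43 in PeCDF at the upper doses.

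Amino acid and peptide carriers, with 36 members the largest class, had 5 increases (13.9%) and 1 decrease (2.78%) with TCDD 1 nM, beside 4.63% higher and 5.92% lower of all genes. Slc3a2 is the heavy chain of several heterodimeric amino acid carriers. It had 0.39 and 0.22 with TCDD 1 nM, 0.24 and 0.24 with TCDF 10 nM, and 0.36 and 0.30 with PeCDF 2 nM, and was called with each (0.30 ± 0.05, 0.24 ± 0.05 and 0.33 ± 0.05). Its values at the lower doses were already above 0 in both animals, from 0.09 to 0.25, without a call. The 2 windows printed above are those of this gene.

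Slc7a5, a light chain partner of Slc3a2 that carries large neutral amino acids, was higher in both animals with TCDD 1 nM, at 0.24 and 0.20 (0.22 ± 0.06, adjusted p = 0.0451). It was not called with TCDF 10 nM (0.05) or PeCDF 2 nM (0.08). The Slc7a5 probe was dim (mean log2 intensity 6.69), and its TCDD 1 nM call was lost without background correction. Slc7a1 and Slc7a2 carry arginine and other cationic amino acids, and rose with TCDD 1 nM by 0.46 ± 0.08 and 0.27 ± 0.04. Their other probes did not follow: Slc7a1's gave 0.01, and those of Slc7a2 0.04 and -0.05. With PeCDF 2 nM Slc7a2 had 0.16, called with the animal as a replicate block only (adjusted p = 0.0215). Slc36a2, a proton-coupled carrier of glycine and proline, rose by 0.20 ± 0.04 with TCDD 1 nM. Its probe was dim (mean log2 intensity 6.41), and the call was lost without background correction. Slc38a3, which carries glutamine, fell to -0.10 and -0.35 (-0.23 ± 0.06, adjusted p = 0.0348), and was 0.02 with TCDF 10 nM and 0.00 with PeCDF 2 nM. Of the 3 carriers listed as reported AHR-linked genes (Slc7a5, Slc13a5 and Slc46a3), only Slc7a5 was measured here.

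The transcription factor ATF4 is known to raise amino acid carriers under amino acid shortage. Of the 8 carriers listed for it, all measured, 3 rose with TCDD 1 nM (Slc3a2, Slc7a5 and Slc7a1, the last by 1 of its 2 probes) and none fell, where 4.63% of all genes were called higher and 5.92% lower. The other 5 had Slc38a2 0.22, Slc7a3 0.17, Slc1a4 0.16, Slc1a5 0.06 and Slc6a9 -0.02. The median of all 8 was 0.20, beside -0.0013 over all genes. With TCDF 10 nM and with PeCDF 2 nM 1 of the 8 rose, in each case Slc3a2, where 1.11% and 1.72% of all genes were called higher. A second Slc38a2 probe gave -0.06.

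Inorganic ion carriers, 31 members, had 1 increase and 1 decrease with TCDD 1 nM, 6.45% of the class, which is below the 10.6% of all genes called. Both were large for this set. Slc4a4, a sodium bicarbonate cotransporter, had 0.90 and 0.86 (0.88 ± 0.17, adjusted p = 0.00822), a 1.84-fold increase and the highest of all members. Both animals were also high with TCDD 0.01 nM, at 0.37 and 0.75, but the adjusted p was 0.248. With the furans the animals disagreed, with -0.02 and 0.76 for TCDF 10 nM and 0.34 and 0.00 for PeCDF 2 nM.

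Slc26a1, which exchanges sulfate, fell with TCDD 1 nM (-0.52 and -0.58, mean -0.55 ± 0.07, adjusted p = 0.0011) and with PeCDF 2 nM (-0.45 and -0.44, adjusted p = 0.0101). With TCDF 10 nM it had -0.22 and -0.40 (adjusted p = 0.0638, and 0.0238 with the animal as a replicate block). Untreated cells and lower doses lay between -0.09 and 0.23. The groups given an upper dose thus did not overlap the others. Slc26a1 was named for its calls, and the share of all genes with such a gap was not counted.

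Mitochondrial carriers were 8 members, of which 1 rose and 4 fell with TCDD 1 nM, where 4.63% of all genes were called higher and 5.92% lower. Slc25a1, which exports citrate, had -0.34 and -0.53 (-0.43 ± 0.07, adjusted p = 0.00211). Slc25a10, the dicarboxylate carrier, fell with TCDD 1 nM (-0.42 ± 0.06) and with PeCDF 2 nM (-0.32 ± 0.06) and had -0.23 ± 0.06 with TCDF 10 nM (adjusted p = 0.0806). Slc25a20, which brings in acylcarnitines for oxidation, fell with TCDD 1 nM to -0.30 and -0.31 (-0.30 ± 0.05) and had -0.09 and -0.02 with the furans. Slc25a30, of unsettled substrate, had 0.24 ± 0.07 with TCDD 1 nM, but its other probe gave 0.00. Both probes were dim, with mean log2 intensities of 6.93 (the one used) and 6.16. The adjusted p of Slc25a30 was 0.0588 with the animal as a replicate block, and its call was kept in 3 of 11 alternative analyses.

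Slc25a4, an adenine nucleotide translocator, fell with each upper dose. Its call with TCDD 1 nM was kept in 8 of 11 alternative analyses. The animals had -0.30 and -0.26 with TCDD 1 nM, -0.46 and -0.36 with TCDF 10 nM and -0.60 and -0.36 with PeCDF 2 nM. Its other probes gave -0.50 and -0.35 with TCDD 1 nM, -0.30 and -0.27 with TCDF 10 nM, and -0.24 and -0.20 with PeCDF 2 nM. The lower doses had -0.06 (TCDD), -0.17 (TCDF) and -0.20 (PeCDF), none of them called.

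Slc25a3, the phosphate carrier, was the one member called between TCDD and PeCDF at the upper doses. It had 0.03 and 0.17 with TCDD 1 nM and -0.32 and -0.31 with PeCDF 2 nM (-0.32 ± 0.05, adjusted p = 0.00826), and the difference was 0.41 ± 0.07 (95% interval 0.26 to 0.57, adjusted p = 0.0335, with 0.847% of all genes called). All groups of the first session had means above 0 (0.07 untreated, 0.05 and 0.10 with TCDD) and all groups of the second had means below 0 (-0.20 and -0.19 with TCDF, -0.14 and -0.32 with PeCDF), lower doses included. A second probe of this gene did not follow, with 0.11, 0.03 and 0.05 at the upper doses of TCDD, TCDF and PeCDF. That probe was dim, with a mean log2 intensity of 6.46 beside 14.54 for the probe used. Whether it could show such a change was not tested. The call between TCDD and PeCDF was lost (0 members) with the mean of both probes, without background correction and with Agilent's log ratio.

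**Figure D3:**
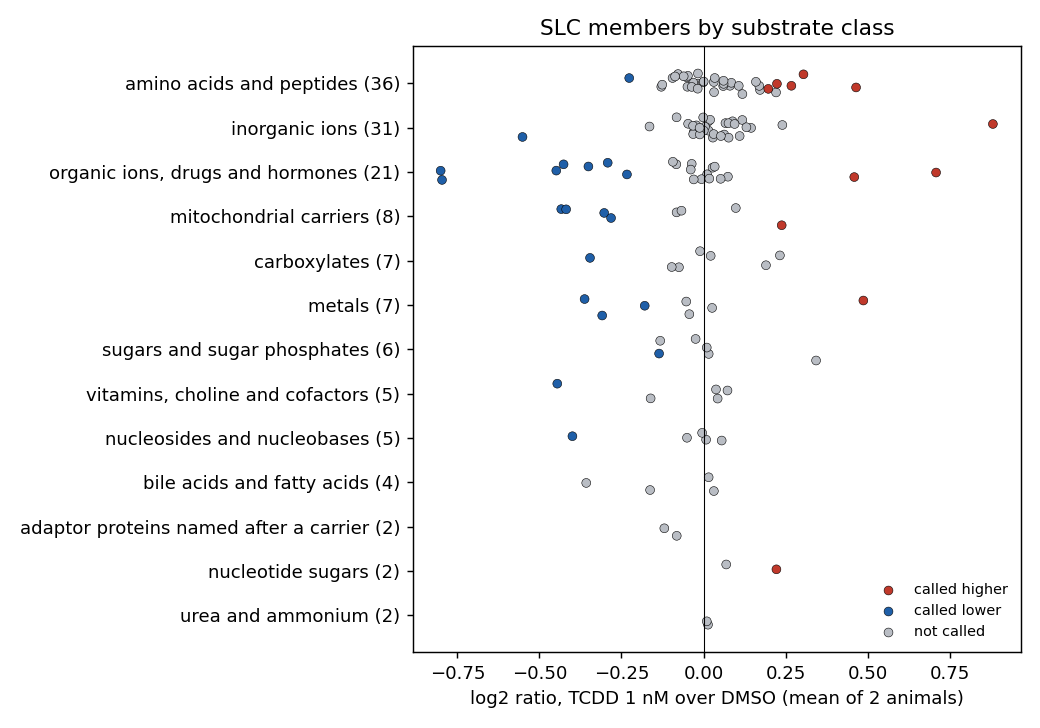
Each point is a member's log2 ratio with TCDD 1 nM over DMSO (mean of 2 animals), placed by substrate class, with the number of members in brackets; colours mark calls. Of the 21 carriers of organic ions, drugs and hormones 7 are called lower and 2 higher, and of the 36 amino acid and peptide carriers 5 are called higher and 1 lower.

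Metal carriers were 7 members, with Slc11a1 counted by its array name. Slc11a2 (DMT1), which brings ferrous iron into the cell, rose with each upper dose: 0.56 and 0.42 with TCDD, 0.58 and 0.54 with TCDF, and 0.29 and 0.57 with PeCDF (0.49, 0.56 and 0.43, each ± 0.08; adjusted p = 0.00256, 0.00605 and 0.0132). All other groups lay between -0.14 and 0.18. Slc31a1 (CTR1), the copper importer, fell with each upper dose, to -0.31 ± 0.04, -0.21 ± 0.04 and -0.21 ± 0.04. Slc40a1 (ferroportin), the iron exporter, had -0.15 and -0.57 with TCDD 1 nM (-0.36 ± 0.10, adjusted p = 0.0492), and 0.08 and 0.15 with the furans. That call was kept in 3 of 11 alternative analyses, and the adjusted p was 0.0595 with the animal as a replicate block. Slc30a2, a zinc carrier, fell by 0.18 with TCDD 1 nM, but its other probe gave -0.03. Both probes were dim, with mean log2 intensities of 6.58 (the one used) and 6.38. The call was lost without background correction and with the mean of both probes.

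In the small classes, single members moved. Slc13a3, which takes up dicarboxylates with sodium, fell with each upper dose: -0.34 and -0.36 with TCDD, -0.42 and -0.49 with TCDF, -0.56 and -0.33 with PeCDF (-0.35, -0.46 and -0.44, each ± 0.08). With TCDD 0.01 nM animal A had 0.39 and animal B 0.02. Slc23a1, the sodium-dependent ascorbate carrier, fell with TCDD 1 nM to -0.42 and -0.47 (-0.45 ± 0.06, adjusted p = 0.00119) and was -0.23 with each furan, uncalled. Slc28a2, which takes up purine nucleosides, fell to -0.47 and -0.33 (-0.40 ± 0.08), and its other probes gave -0.13 and -0.35. Slc2a4 (GLUT4), the insulin-responsive glucose carrier of muscle and fat, had -0.14, -0.20 and -0.18 with the upper doses of TCDD, TCDF and PeCDF, each called. Its other probe gave -0.04, 0.00 and 0.10. Both probes were dim, with mean log2 intensities of 6.98 (the one used) and 6.22.

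Several members had sizeable values and no call with TCDD 1 nM. Slc2a1 (GLUT1), the general glucose carrier, had 0.31 and 0.37 (adjusted p = 0.106), and Slc27a2, an acyl-CoA synthetase of long fatty acids, -0.32 and -0.40 (adjusted p = 0.0646, and 0.0497 with the replicate block), while a second Slc27a2 probe gave -0.52 ± 0.09. Slc16a3 and Slc16a6, of the monocarboxylate family, had 0.19 and 0.23. Of the 5 measured carriers listed as PPARA-linked, 1 fell with TCDD 1 nM (Slc25a20), where 5.92% of all genes were called lower. Slc22a5, Slc27a1 and Slc16a1 had 0.01, 0.02 and -0.10.

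Slc35b2, the array name of a carrier of the sulfate donor PAPS, was called higher with TCDD 1 nM (0.22 ± 0.04). The accession of its probe now names Nfkbie in the RefSeq table, and that of Slc11a1 names Lypd8l1, so neither value is given to a carrier. Slc9a3r1 and Slc9a3r2 are adaptor proteins (Nherf1 and Nherf2) with -0.12 and -0.08. Without these 4, 30 of 132 members were called with TCDD 1 nM.

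Carriers listed as enriched in hepatocytes for uptake had 11 measured members. With TCDD 1 nM 3 rose (Slc17a1, Slc17a3 and Slc7a2) and 4 fell (among them Slc22a7, Slc13a3 and Slc38a3), with a median of -0.09, where 4.63% of all genes were called higher and 5.92% lower. Slc7a2 is counted by the probe used here, which its other probes did not follow. With TCDF 10 nM 2 rose and 2 fell (1.11% and 1.26% of all genes), and with PeCDF 2 nM 1 rose and 2 fell (1.72% and 2.67% of all genes). Of the 5 names left out by definition, 5 fell with TCDD 1 nM, 2 with TCDF 10 nM and 3 with PeCDF 2 nM, none of them counted here, where 5.92%, 1.26% and 2.67% of all genes were called lower. Of 8 measured other transport genes that are not named Slc, 4 fell with TCDD 1 nM and none rose, beside the same shares of all genes.

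**Figure D4:**
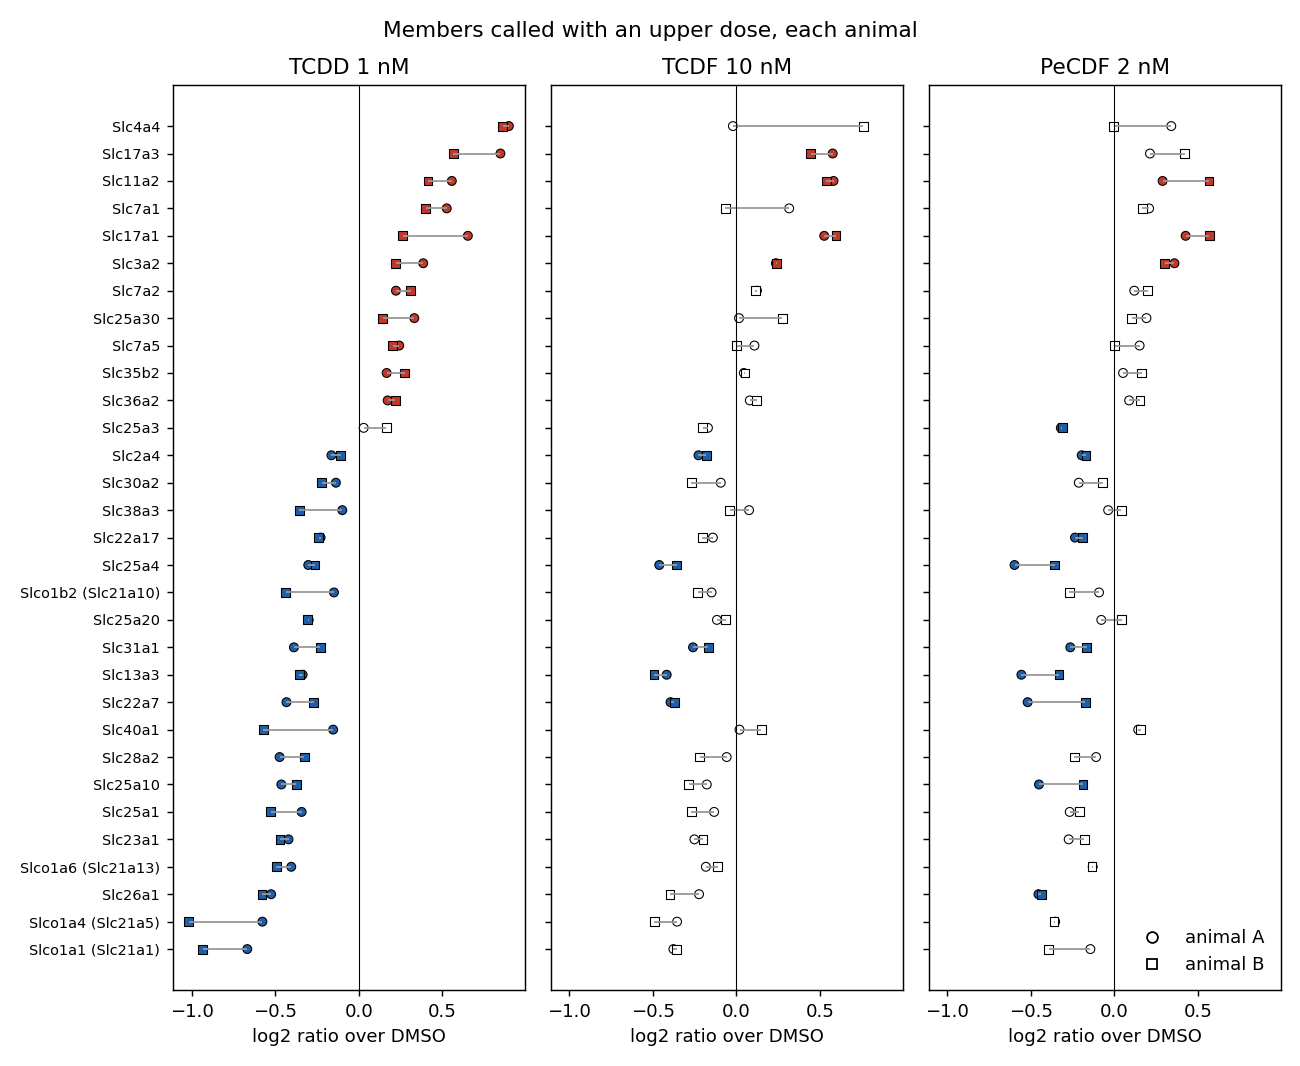
Points give the log2 ratio over DMSO in each animal (circles A, squares B) at the upper doses for members called with at least one of them; filled points mark a call (red higher, blue lower), open points no call. Slc11a2, Slc17a1 and Slc3a2 are red and Slc13a3, Slc22a7, Slc31a1, Slc25a4 and Slc2a4 blue in all panels, while Slco1a1 and Slco1a4 are blue with TCDD 1 nM alone.

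The step between doses of a compound was tested within a session. From TCDD 0.01 to 1 nM 8 members were called (5.88%, with 3.74% of all genes). Slc17a3 rose by 0.75 ± 0.14, and among those that fell were Slc21a1 (-0.77 ± 0.12), Slc21a5 (-0.68 ± 0.14), Slc26a1 (-0.66 ± 0.10), Slc13a3 (-0.55 ± 0.12), Slc23a1 (-0.41 ± 0.09) and Slc31a1 (-0.32 ± 0.06). When only arrays of that session were fitted the count was 4. From TCDF 0.1 to 10 nM and from PeCDF 0.02 to 2 nM no member was called (0.089% and 0.0833% of all genes), with 13 and 14 at an unadjusted p under 0.05.

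The upper doses of the compounds, which differ in nM, were set side by side as 3 pairs, with p-values adjusted over all genes within each pair. TCDD 1 nM against TCDF 10 nM called no member (0.0632% of all genes; 19 unadjusted), TCDD 1 nM against PeCDF 2 nM called Slc25a3 alone, and TCDF 10 nM against PeCDF 2 nM, the only pair read in 1 session, called none (0% of all genes; 0 unadjusted). For Slc21a1, TCDD minus TCDF was -0.43 (95% interval -0.70 to -0.16, adjusted p = 0.215) and TCDD minus PeCDF -0.53 (-0.80 to -0.26, adjusted p = 0.077). For Slc4a4 the same differences were 0.51 (-0.02 to 1.05) and 0.71 (0.18 to 1.25). Slc11a2 had differences of -0.07 (-0.31 to 0.17) and 0.06 (-0.18 to 0.30), so that differences up to these bounds remain possible. TCDF minus PeCDF lay between -0.31 and 0.21 for all 136 members, and for Slc21a1 it was -0.10 (-0.37 to 0.17).

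Calls differed in how well they held. The 11 alternative analyses are not independent: Agilent's own log ratio and the deposited series values are the same ratios and were counted separately. A member left out by the filter on all 28 arrays, as Slc36a2 was, counts as lost there without a test. With TCDD 1 nM 18 of the 31 were kept in all 11 alternative analyses, among them Slc21a1, Slc21a5, Slc4a4, Slc17a3, Slc17a1, Slc11a2, Slc3a2, Slc26a1, Slc23a1 and Slc31a1. Kept least were Slc40a1 and Slc25a30 (3 of 11), Slc2a4 (5), Slc21a10 (6), and Slc38a3 and Slc13a3 (7). With TCDF 10 nM Slc13a3 and Slc11a2 were kept in all 11, and with PeCDF 2 nM Slc3a2, Slc26a1, Slc13a3, Slc25a10 and Slc11a2.

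The values of the animals correlated most where members moved, but the animals were not always closer there. Across the 136 members the values of animals A and B correlated with r = 0.809 with TCDD 1 nM, 0.658 with TCDF 10 nM and 0.709 with PeCDF 2 nM, and with -0.245 to 0.317 in the other groups. Their median difference, without regard to sign, was 0.0801, 0.0548 and 0.0729 at these upper doses, and 0.0589 to 0.0768 in the other groups. These are descriptions across genes that share arrays and are not independent.

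Upstream windows were in the table for 110 of the 132 members named as carriers, 119 windows in all. GCGTG was in 6 of the 10 windows of members that rose with TCDD 1 nM, in 4 of the 18 of members that fell, in 37.8% of all member windows and in 25.9% of all windows. TGATGNAA was in 1, 0, 2.52% and 3.4%, in the same order. TTAATNATT was in 1, 0, 4.2% and 1.37%, and the 1 window is that of Slc17a3.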

How the data were processed

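The authors deposited scanner files of 28 two-colour Agilent arrays with mean spot and background intensity per probe, and log10 ratios of red over green, per the file headers. The deposited series values are the same log10 ratios turned to test over DMSO (largest difference 4.995e-06). Feature Extraction from Agilent read the scans, in version A.7.5.1 per the file headers and 9.1 per the submitters' processing notes.

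Intensities were processed anew with limma 3.58.1 in R 4.3.3. After normexp background correction (offset 50) each array had loess normalization in which the 2256 control spots carried no weight, and 1067 marked spots were dropped. Spots of a probe were averaged, and both dye orientations of an animal were averaged to 1 log2 ratio. The 14 values were fitted as 7 group means with lmFit and eBayes (7 residual and 3.21 prior degrees of freedom). A call is an adjusted p (Benjamini-Hochberg, all genes together) under 0.05. Between 71.1 and 94.9% of probes were above background in both channels. On data of 34845 genes simulated for TCDD 1 nM the fit recovered 97% of 100 changes of log2 1 and 96% of 100 of log2 0.5. The simulated noise was independent and normal, scaled by the standard errors of the fit, with no part shared by animal, session or DMSO RNA. It therefore checks the computation only, and the recovery of real changes was not tested.

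4 animal values, in Slc36a2, Slc9a4 and Slc7a1, were missing and those groups rest on 1 animal. Names came from RefSeq, by accession for 129 members and by symbol for 7. Named were the called members with the largest changes at each upper dose, the 2 smallest p-values of each class, and all members of the lists; other members in the text were chosen after their values were seen. 1 member is counted but not reported by name here. Members and lists were chosen with earlier results of these data known. It is not given in the sources used here whether 1 DMSO preparation served all arrays of an animal, so comparisons may share their controls. Replicate letters come from the same animals, so A and B pair the groups; deviations between them correlated with -0.393 to 0.563 over 21 pairs of groups.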

Additional observations from a re-analysis of the deposited data

Results flagged for a closer look

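Slc25a3, the mitochondrial phosphate carrier, differed between TCDD 1 nM and PeCDF 2 nM by 0.41 on the log2 scale (limma, adjusted p = 0.0335), the one difference between compounds that passed among the members. The animals had 0.03 and 0.17 with TCDD and -0.32 and -0.31 with PeCDF. The values of this gene were above 0 in all group means of the first reading session and below 0 in all of the second, so compound and session cannot be told apart. A second, dim probe of the gene (mean log2 intensity 6.46, beside 14.54 for the probe used) had 0.11 with TCDD and 0.05 with PeCDF. Groups of 2 animals are too small to look for outlying samples.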

How the results depend on the processing

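No member named here changed direction with a call. Of the calls, 18 of 31 with TCDD 1 nM, 2 of 9 with TCDF 10 nM and 5 of 12 with PeCDF 2 nM held in 11 alternative analyses. With Agilent's own log ratio, as with the deposited series values, 1 member was higher with TCDF 10 nM, 1 was called in untreated cells, 4 in the TCDD dose step and 0 between TCDD and PeCDF; the medians were 0.0171 (TCDD 0.01 nM), 0.0183 (TCDD 1 nM) and -0.0482 (TCDF 10 nM). Without background correction 13 fell with TCDD 1 nM and 10 with TCDF 10 nM, 3 were called in the TCDD step and 0 between TCDD and PeCDF. With 1 session alone 2 rose and 2 fell with TCDF 10 nM, and 4 were called in the TCDD step. The mean of all probes gave 3 lower with TCDF 10 nM and 0 between TCDD and PeCDF. With probes above background on all 28 arrays the medians were -0.011 (TCDD 1 nM), -0.0164 (PeCDF 0.02 nM) and -0.0255 (PeCDF 2 nM). Fitting arrays with a dye term, which counts a dye-swap pair as 2, gave 18 higher with TCDD 1 nM, 17 lower with TCDF 10 nM, 8 higher and 18 lower with PeCDF 2 nM, 1, 1, 2 and 2 in untreated cells and at the lower doses of TCDD, TCDF and PeCDF, 26, 7 and 7 in the dose steps, 10 between TCDD and TCDF and 13 between TCDD and PeCDF; calls over all genes rose too, to 6437, 2804 and 4495 with TCDD 1 nM, TCDF 10 nM and PeCDF 2 nM from 3678, 823 and 1530. With the animal as a replicate block 30, 10 and 13 members were called with TCDD 1 nM, TCDF 10 nM and PeCDF 2 nM, 28, 9 and 12 of them shared with the main analysis; Slc40a1, Slc25a30 and Slc21a10 lost their call there. Leaving out an animal leaves no spread to test, and the medians then ranged from -0.0183 to -0.0034 (untreated), 0.0014 to 0.0059 (TCDD 0.01 nM), -0.0042 to 0.0052 (TCDD 1 nM), -0.0176 to -0.0038 (TCDF 0.1 nM), -0.0329 to -0.0069 (TCDF 10 nM), -0.0139 to -0.0063 (PeCDF 0.02 nM) and -0.0113 to -0.0024 (PeCDF 2 nM). The cause of these changes was not tested. Keeping only members named as carriers was added after the data were seen. The number of animals, 2, limits the precision.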
